A study of Mus musculus with 46 samples.

Results

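RNA from 26 AB1-HA tumors, all removed 1 day before cyclophosphamide (CY), was compared between mice that later cleared their tumor and mice that did not. They are the 13 complete responders (CR) and 13 progressors (PR) among the 46 tumors of the series whose labels give the day before treatment, and no measured value was used to choose them. AB1-HA is a murine mesothelioma line, here grown under the skin of male BALB/c mice aged 8 to 10 weeks. Every mouse had a tumor on each side. On day 9 a single tumor was cut out for sequencing, on day 10 CY was given at 200 mg/kg, and the tumor left behind gave the response. The labels call the PR group partial responders. All 26 tumors were therefore untreated when sampled, and each came from a different mouse, so no tumor of one group is paired with a tumor of the other. The model is 1 transplanted line, which limits it to that line. The remaining 20 tumors, 5 CR and 5 PR at each of 3 and 7 days after CY, came from other mice and are used only where stated.

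Cyclophosphamide is an alkylating prodrug whose products crosslink DNA, and cells meet it with crosslink repair, the p53 response and glutathione-dependent detoxification. It also acts through the immune system, by removing some lymphocytes and by exposing tumor antigen to others. T cells enter tumors along chemokine gradients, read peptides on MHC molecules and receive cytokine signals through receptors that use JAK kinases. A bulk tumor sample mixes all of these cells with tumor cells and stroma. A lower level of a gene may mean fewer cells of a type or less RNA per cell, and these cannot be told apart here.

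The table covered gene symbols in alphabetical order up to Pax7, and held 14070 (64.2%) of the 21924 protein-coding gene names in GENCODE M21, so symbols after it were not analysed here. The 26 tumors held 10.2e6 to 14.2e6 counts each (median 12.1e6). Levels are given as CPM, counts scaled to a common total over the genes covered, with library sizes scaled by TMM. Msln, the mesothelin gene, was between 288 and 585 CPM in every tumor, while the keratin genes Krt18 and Krt19, often used as mesothelioma markers, stayed under 1 CPM. Skin and muscle were present unevenly. Krt5, a keratin of the basal skin layer, ranged from 0 to 192 CPM in CR and from 0 to 138 CPM in PR. Acta1, skeletal muscle actin, ranged from 71.3 to 349 CPM in CR and from 49.6 to 189 CPM in PR.

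A single gene passed the test between CR and PR before CY. Hdac9, which encodes a class IIa histone deacetylase, was lower in CR, and no gene was called higher. edgeR's quasi-likelihood test with Benjamini-Hochberg adjustment at a false discovery rate (FDR) under 0.1 called 0 of 10777 genes higher (0%) and 1 lower (0.00928%). At an unadjusted p under 0.05 it found 997 higher (9.25%) and 888 lower (8.24%). DESeq2, run at the same FDR on the 9513 genes it kept, called 231 higher (2.43%) and 206 lower (2.17%). Limma-voom with quality weights called 714 higher (6.63%) and 474 lower (4.4%). DESeq2 and limma-voom shared 431 calls. No gene separated all CR from all PR tumors. In edgeR the smallest adjusted p after Hdac9 was 0.120, shared by 15 genes, so the genes described after Hdac9 did not pass and are given by their values.

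The number of edgeR calls rose when some single tumors were left out, but the median over all such fits was 0 higher and 1 lower. The counts at an unadjusted p under 0.05 changed less in proportion. They were 997 higher and 888 lower with all tumors, 1285 and 1087 without CT12, and 935 and 852 without CT13. Without the PR tumor CT12 edgeR called 551 genes higher (5.09%) and 323 lower (2.98%). Without the CR tumor CT8 the calls were 288 higher and 160 lower. They were 250 and 190 without the PR tumor CT16, and 252 and 133 without the PR tumor CT25. Leaving out the PR tumor CT9 gave 14 and 14 calls, and leaving out the CR tumor CT13 gave 0 and 3. The 4 larger sets shared 235 calls, 139 higher and 96 lower in CR. All 30 genes followed below, the 15 with the smallest p on each side, were among these calls. They were chosen on all 26 tumors, and the 4 fits share most tumors, so this is not independent support. Apart from Hdac9, each of the 30 was called in only 4 to 6 of the 26 fits that left out 1 tumor. Genes common to all leukocytes were high in CT12 and CT25 and low in CT8. On a score of these genes (the mean of their standardized log2 CPM), CT12 and CT25 had the highest values of the PR tumors at 1.14 and 0.96, and CT8 the lowest of the CR tumors at -0.78. CT16 stood at -0.02, rank 4 of the 13 PR tumors.

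Hdac9 measured 39.3 CPM in the lowest CR tumor, 43.8 at the median and 48.3 in the highest. In PR it measured 43.5, 56.4 and 61.1 CPM. The PR tumors thus lay above the CR tumors almost throughout: 12 of 13 PR tumors were above every CR tumor, and the lowest, CT15, fell inside the CR range. The next lowest, CT16, was just above the highest CR tumor (48.4 against 48.3 CPM), and with libraries scaled over all 46 tumors it was just below it (47.8 against 47.9 CPM). The mean was 43.8 ± 3.43 CPM over the CR tumors, against 54.8 ± 5.14 CPM over the PR tumors (SD, n = 13 per group). The log2 fold change was -0.32 (standard error 0.049) with an adjusted p of 0.00522 in edgeR's quasi-likelihood test, that is, 0.800 times the PR level. DESeq2 gave an adjusted p of 4.5e-06 and limma-voom 0.0085. Each of the 26 fits that left out 1 tumor called Hdac9, with log2 fold changes from -0.35 to -0.30. Hdac9 was also lower in CR within both sets of tumor titles. In the 14 tumors numbered up to 14 it ran from 39.3 to 48.3 CPM in CR and from 53.2 to 61.1 CPM in PR. In the 12 tumors numbered above 14 it ran from 40.2 to 44.5 CPM in CR and from 43.5 to 57.7 CPM in PR. How many other genes separated within a set was not counted. Both sets are parts of the 26 tumors in which Hdac9 was found, so they are not independent support. Neither set passed alone (adjusted p = 0.260 and 0.728). With the leukocyte score in the model the log2 fold change was -0.28 and Hdac9 no longer passed (adjusted p = 0.332).

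Hdac9 lies on chr12:34047580-34917095, minus strand, in GRCm38.p6. RefSeq lists more than 1 start for it, and the counts are summed over the gene, so they do not say which start was used. Both promoter windows are shown since Hdac9 is the gene the comparison turns on. Each runs from 250 bases before a start to 50 after it, in lower case throughout because no motif was marked in them. The upper is chr12:34917046-34917345 and the lower chr12:34528840-34529139, both minus strand.
Hdac9 upstream start: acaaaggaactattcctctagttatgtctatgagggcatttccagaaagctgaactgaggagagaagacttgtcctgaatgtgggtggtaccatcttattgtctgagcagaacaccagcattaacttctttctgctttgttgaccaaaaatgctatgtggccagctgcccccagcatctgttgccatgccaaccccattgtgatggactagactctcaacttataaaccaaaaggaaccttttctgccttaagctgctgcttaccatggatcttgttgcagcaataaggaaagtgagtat
Hdac9 downstream start: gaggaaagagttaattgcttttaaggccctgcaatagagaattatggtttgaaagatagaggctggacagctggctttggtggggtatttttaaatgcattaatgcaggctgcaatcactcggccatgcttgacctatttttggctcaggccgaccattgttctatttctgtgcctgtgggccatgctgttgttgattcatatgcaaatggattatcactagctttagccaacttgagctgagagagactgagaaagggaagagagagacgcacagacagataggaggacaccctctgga

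**Figure D1:**
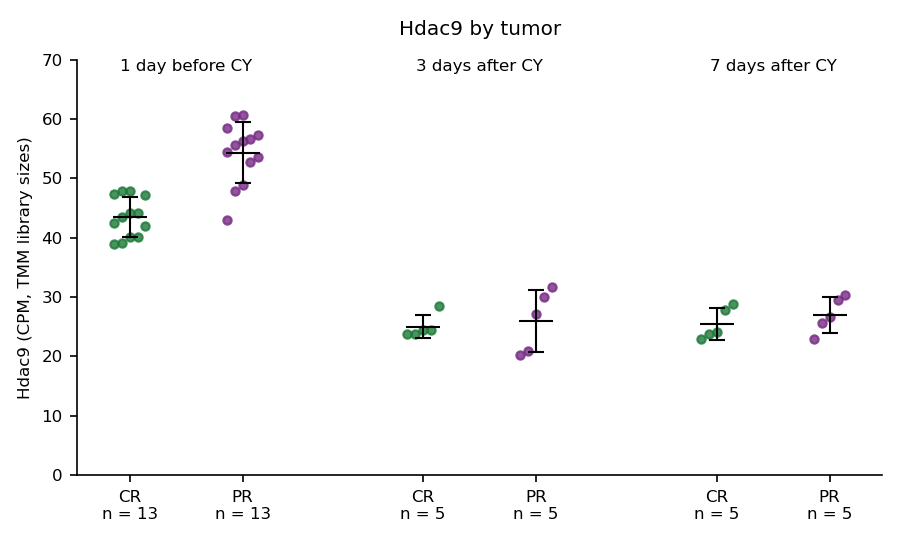
Hdac9 in each of the 46 tumors, in CPM with library sizes scaled over all tumors, by response and day. Points are tumors (green CR, purple PR), and the bar and whiskers are the mean and SD. On this scale 11 of 13 PR tumors before CY lie above every CR tumor, CT15 and CT16 do not, and on the later days the groups overlap.

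On the later days the Hdac9 difference was smaller than its standard error. Scaled over all 46 tumors, Hdac9 measured 23.8 to 28.4 CPM in CR and 20.2 to 31.6 CPM in PR at day 3 (n = 5 each). At day 7 it measured 22.9 to 28.8 CPM in CR and 22.9 to 30.3 CPM in PR. The groups overlapped on both days. In a model of all 6 groups the log2 fold change was -0.06 (standard error 0.098) at day 3 and -0.08 (standard error 0.099) at day 7. Neither passed (edgeR, adjusted p = 1 and 0.905), and neither differed from the value before CY beyond the threshold (adjusted p = 1 and 0.426). Every tumor of a later day was below every tumor before CY, the lowest of which had 38.9 CPM on this scale. Day after CY goes with tumor age and depth in these samples.

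The higher and lower genes at an unadjusted p under 0.05 differed in level and spread. The 997 higher genes had a median log2 fold change of 0.35 at a median level of 16.9 CPM, and a median spread within groups of 0.35 (SD of log2 CPM). The 888 lower genes had a median log2 fold change of -0.12 at 89.3 CPM, with a spread of 0.11. Over all genes tested these medians were -0.01, 26 CPM and 0.19. At 1.5-fold or more, 146 higher and 12 lower genes had an unadjusted p under 0.05. Among genes at that p, those higher in CR were mostly of lower level and wide spread, and those lower in CR were abundant and varied little. A small difference reaches that p only where the spread is small, so this contrast depends in part on the cut. Level and spread of all genes higher or lower in CR were not compared.

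**Figure D2:**
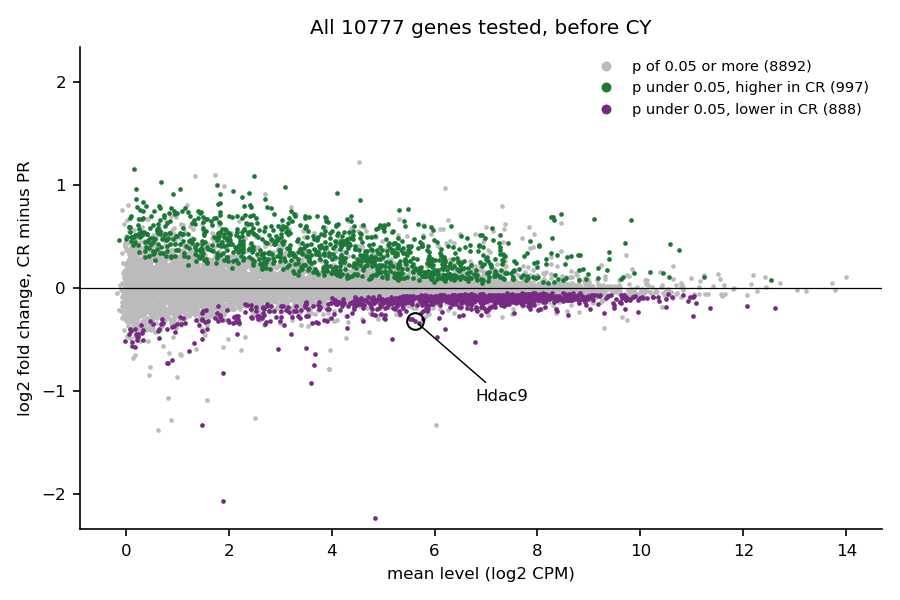
Log2 fold change of CR against PR for all 10777 genes tested against their mean level in log2 CPM. Green and purple points have an unadjusted p under 0.05 (997 higher, 888 lower), grey points do not. The purple points form a thin band just under 0 at high levels, and the green points spread widely at low and middle levels.

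Among the 15 genes with the smallest p on the higher side were genes of lymphocytes, myeloid cells and matrix. Cd5, a receptor that dampens T cell receptor signalling, measured 7.26 CPM in the lowest CR tumor, 11.6 at the median and 17.1 in the highest, against 3.57, 7.11 and 13.4 CPM in PR. All 13 CR tumors were above the PR median, though the ranges overlapped. Its log2 fold change was 0.70 (standard error 0.151). Blk, a Src family kinase of B cells, had 0.55, 1.27 and 1.92 CPM in CR and 0.08, 0.44 and 1.75 CPM in PR. That is a log2 fold change of 1.16 (standard error 0.274) at a very low level. Cyp4f18, a cytochrome P450 that acts on leukotriene B4, had 2.11, 6.53 and 10.2 CPM in CR and 2.42, 3.79 and 5.91 CPM in PR. Its lowest tumor of all was the CR tumor CT8.

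Cytokine receptors and cell skeleton genes followed. For Il27ra, the receptor for interleukin 27, the log2 fold change was 0.34 (SE 0.076), and for Il17ra, the receptor for interleukin 17, it was 0.18 (SE 0.041). For both, all 13 CR tumors were above the PR median. Cotl1 and Mical1, which act on actin, had 0.21 and 0.20. Cd101, a surface protein of T cells and myeloid cells, had 0.57. Limd2 had 0.19 and Creld1 0.29.

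The rest of the 15 act in matrix and in the breakdown of sugars and lipids. Loxl1, which crosslinks elastin, had 175, 213 and 224 CPM in CR and 148, 171 and 221 CPM in PR as lowest, median and highest. Its log2 fold change was 0.24 (standard error 0.057). Chsy3, a chondroitin synthase, had 0.67 and the collagen gene Col20a1 had 0.47. Neu1, a lysosomal sialidase, ran from 37.2 to 42.0 CPM in CR and from 34.0 to 39.4 CPM in PR. It differed by only 0.13, but 10 of 13 CR tumors were above every PR tumor. Abhd12, a lipid hydrolase, had 0.11.

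The 15 genes on the lower side included genes of cell division and of ubiquitin transfer. Atad2, a bromodomain protein of replicating chromatin, had 211, 226 and 246 CPM in CR and 225, 251 and 273 CPM in PR. No CR tumor reached the PR median. The log2 fold change was -0.15 (standard error 0.031). Cep55, which acts in the final separation of daughter cells, had 85.8, 99.4 and 106 CPM in CR and 99.8, 108 and 123 CPM in PR. Mdm2, the ubiquitin ligase of p53, had 141, 148 and 160 CPM in CR and 139, 168 and 187 CPM in PR. Both had no CR tumor above the PR median, with log2 fold changes of -0.15 and -0.16. Arhgap11a, a GTPase activator, had -0.14 and Nedd1, which brings gamma-tubulin to the spindle, -0.12.

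The other lower genes described here had log2 fold changes from -0.73 to -0.13. Kif21a, a kinesin, had -0.24 and Ctnnal1, a relative of alpha-catenin, -0.22. Otud6b, a deubiquitinase, and Dzip3, a ubiquitin ligase, had -0.14 and -0.16. Gatb and Fam210a, both mitochondrial, had -0.18 and -0.13, and Arl14ep had -0.13. Mecomos, an antisense transcript at 0.92 to 2.96 CPM, had -0.73. How strand was counted is not given in the sources used here, so its reads cannot be told apart from those of the gene on the other strand.

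**Figure D3:**
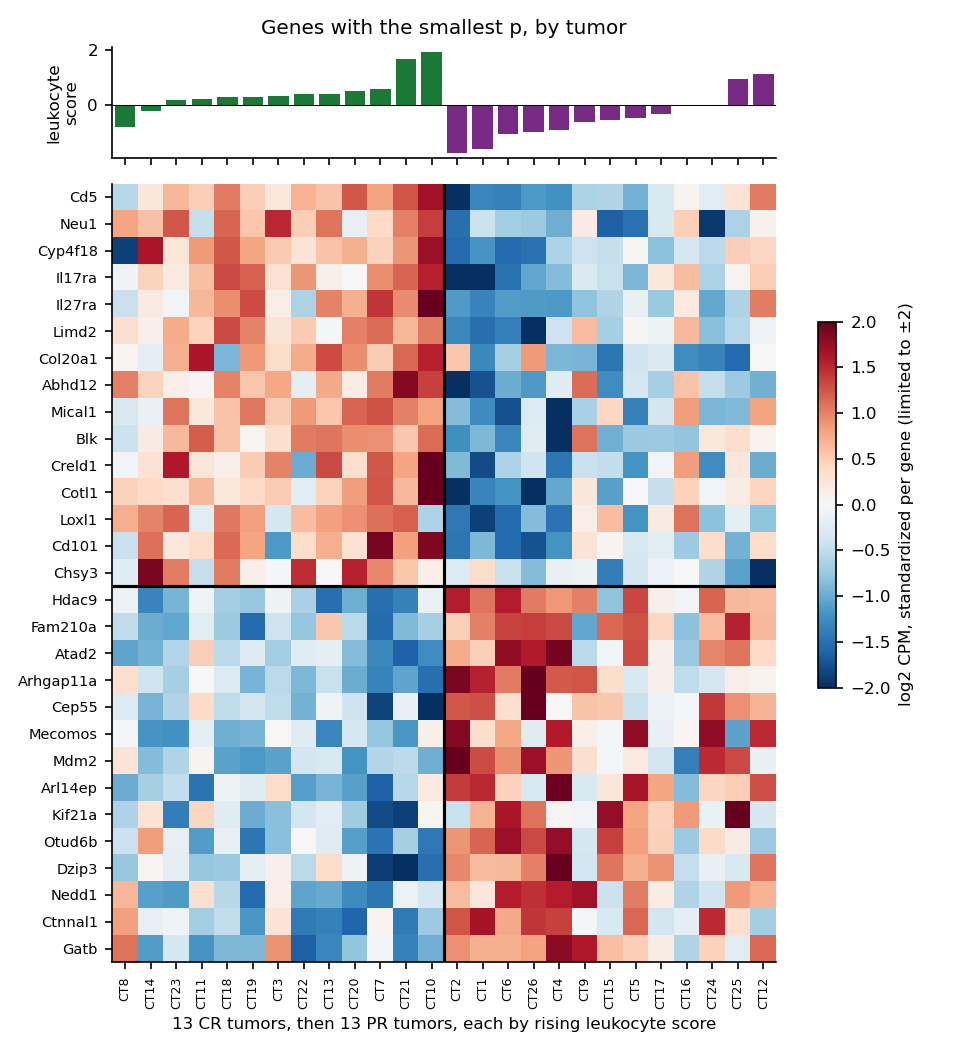
Of the 30 genes with the smallest p, 29 (15 higher above the line, 14 lower below it) in the 26 tumors, as log2 CPM standardized per gene and limited to ±2, with the leukocyte score of each tumor as bars. Tumors run from low to high score within CR (left) and PR (right). CT8 has the lowest Cd5 of the CR tumors and CT12 the highest of the PR tumors.

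These 30 genes kept their direction, at an unadjusted p under 0.05, with the leukocyte score in the model, but none passed the FDR. Several differences became smaller. The log2 fold change went from 0.70 to 0.31 for Cd5, from 0.18 to 0.09 for Il17ra and from -0.14 to -0.07 for Arhgap11a. Others did not, such as Chsy3 (0.67 to 0.87) and Fam210a (-0.13 in both). The 30 genes also kept direction within both sets of titles. They were chosen on all 26 tumors, so neither is independent support. At day 3 the CR minus PR difference had the same sign as before CY for 11 of the 15 higher genes and 10 of the 15 lower genes. Over all 10777 genes 57.4% had the same sign. At day 7 it had the same sign for 7 of 15 and 7 of 15, against 45% of all genes. Of the 997 higher and 888 lower genes at an unadjusted p under 0.05 before CY, 65.4% and 66.9% had the same sign at day 3. At day 7 only 36% and 35.5% had it. None of the 30 passed on a later day. Nor did the change of the CR minus PR difference from before CY pass for any of the 30 on either day.

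Immune genes were described by role, each list by the number of tested members that were higher or lower in CR at an unadjusted p under 0.05, to be read against 9.25% and 8.24% of all genes. In the fit of all 26 tumors edgeR called 0 members of each list that follows. DESeq2 calls are to be read against 2.43% higher and 2.17% lower, and limma-voom calls against 6.63% and 4.4%. On the T cell side, 13 of 13 genes of the receptor complex and its coreceptors were higher at that level, with a median log2 fold change of 0.60 (DESeq2 called 6, limma-voom 13). Cd4, the coreceptor of helper T cells, had 9.28, 20.6 and 32.4 CPM in CR and 5.54, 13.8 and 24.2 CPM in PR. The ranges overlapped over most of their length. Cd8a, the coreceptor of cytotoxic T cells, had 3.40, 8.02 and 21.2 CPM in CR and 2.56, 4.95 and 13.2 CPM in PR. Foxp3, the factor of regulatory T cells, had 0.49 (SE 0.184). Of 13 lymphocyte transcription factors 10 were higher, with a median of 0.35 (DESeq2 called 4, limma-voom 9). Eomes, a factor of cytotoxic cells, had 0.57 (SE 0.176), and no CR tumor lay below the PR median. Batf had 0.50 and Bach2 0.34. Of 8 GIMAP genes, GTPases that support lymphocyte survival, 7 were higher, with a median of 0.43 (DESeq2 called 1, limma-voom 6). These are similar genes of 1 family, among which reads may be split. Gimap3 had 16.2, 23.7 and 50.5 CPM in CR and 6.95, 14.98 and 32.3 CPM in PR.

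Chemokine receptor genes were mostly higher in CR. Of 20 chemokine receptor genes 14 were higher and 0 lower, with a median log2 fold change of 0.43. DESeq2 called 6 higher and limma-voom 11. Cxcr6, a receptor of tissue T cells, had 3.48, 6.46 and 11.3 CPM in CR and 1.75, 4.44 and 7.50 CPM in PR, a log2 fold change of 0.71 (standard error 0.190). Ccr7, which guides dendritic cells and naive T cells to lymph nodes, had 10.7, 20.8 and 39.4 CPM in CR and 7.21, 12.5 and 21.9 CPM in PR. Ccr8 and Ccr4, carried by regulatory and helper T cells, had 0.74 and 0.72. In all 4 genes the ranges overlapped.

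Of 27 chemokine genes 10 were higher and 0 lower at that level, with a median of 0.40 (DESeq2 called 5, limma-voom 11). Cxcl5, a neutrophil attractant, had 0.61 (standard error 0.195). Ccl11, the eosinophil attractant eotaxin, had 30.1, 38.0 and 69.7 CPM in CR and 11.4, 29.4 and 49.0 CPM in PR. All 13 CR tumors were above the PR median. Cxcl14 had 0.31 and Ccl22, a ligand of Ccr4, 0.42.

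Cytokine signalling genes followed the same direction. Of 23 genes of interferon gamma and interleukin signalling 14 were higher and 0 lower, with a median of 0.39 (DESeq2 called 3, limma-voom 17). Il18r1, a chain of the interleukin 18 receptor, had 12.4, 26.1 and 38.5 CPM in CR and 6.38, 14.96 and 32.8 CPM in PR. Il21r had 0.47 and Il2rb, shared by the receptors for interleukins 2 and 15, had 0.60. Il12b, a chain of interleukin 12, had 4.69, 7.79 and 17.3 CPM in CR and 2.35, 3.94 and 11.3 CPM in PR, with every CR tumor above the PR median. Ifng, which encodes interferon gamma itself, was at low counts throughout, with 0.28, 1.19 and 5.10 CPM in CR and 0.08, 0.52 and 4.16 CPM in PR. Its log2 fold change of 0.67 (SE 0.455) moved to 0.37 without the CR tumor CT21 and to 1.18 without CT12. All 21 genes of the interferon gamma response were higher in CR, with a median of 0.57, but 1 of them, Gbp8, had an unadjusted p under 0.05. At the FDR DESeq2 called 0 of the 21 and limma-voom called 13. Of 26 genes of the type I interferon response 0 had an unadjusted p under 0.05 in edgeR, and DESeq2 and limma-voom called 0, with a median of 0.15.

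On the myeloid side the shares differed between lists. Of 28 macrophage genes 10 were higher, with a median of 0.26 (DESeq2 called 0, limma-voom 10). Ms4a7, a membrane protein of macrophages, had 0.26 (SE 0.097). Of 20 dendritic cell genes 9 were higher, with a median of 0.35 (DESeq2 called 6, limma-voom 9). Flt3, the receptor for a dendritic cell growth factor, had 0.49 (standard error 0.143). Of 8 tested neutrophil genes 6 were higher, with a median of 0.52 (DESeq2 called 3, limma-voom 5). Csf3r, the receptor for granulocyte growth factor, had 17.6, 38.8 and 67.6 CPM in CR and 11.8, 25.2 and 47.0 CPM in PR. The summed level of the list ran the other way, with a median of 735 CPM in CR and 843 CPM in PR and a highest value of 1339 and 2029 CPM. Ly6g, the defining neutrophil marker, had at most 1 count in any tumor. Of 13 monocyte genes 2 were higher, with a median of 0.33 (DESeq2 called 1, limma-voom 3). Of 13 mast cell and eosinophil genes 4 were higher, with a median of 0.22 (DESeq2 called 1, limma-voom 3). Of 17 complement genes 9 were higher, with a median of 0.32 (DESeq2 called 0, limma-voom 10). Among the 9 were the receptors C5ar1 with 0.33 and C3ar1 with 0.26.

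Of 25 lysosome genes 8 were higher and 0 lower, with a median of 0.07 (DESeq2 called 5, limma-voom 8). Man2b1, an alpha-mannosidase, had 222, 260 and 365 CPM in CR and 173, 223 and 265 CPM in PR. Grn, the progranulin gene, had 551, 611 and 717 CPM in CR and 459, 511 and 709 CPM in PR, with every CR tumor above the PR median. Of 13 tested B cell genes 3 were higher, Blk, Igkc and Cd22 (DESeq2 called 1 of the 13, limma-voom 4). The defining B cell marker Ms4a1 stayed at or under 1.06 CPM in every tumor.

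Matrix genes were also higher in CR. All 20 genes of fibroblasts and matrix had a positive log2 fold change, with a median of 0.13, and 8 reached an unadjusted p under 0.05. At the FDR 4 of them were DESeq2 calls and 6 were limma-voom calls. Lox, a lysyl oxidase that crosslinks collagen, had 90.4, 140 and 196 CPM in CR and 59.4, 106 and 158 CPM in PR. Fbln1, a fibulin, had 0.40 (standard error 0.133). Dcn, the collagen-binding proteoglycan decorin, had 296, 419 and 553 CPM in CR and 220, 332 and 456 CPM in PR. The main collagen Col1a1 ranged from 2479 to 3726 CPM in CR and from 2149 to 4084 CPM in PR.

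Most vessel genes had small negative differences, and a few tumor genes were lower. Of 13 endothelial genes 1 was lower and 1 higher at an unadjusted p under 0.05. The list's median was -0.10, against -0.01 over all genes. Of the 13, 12 had a negative log2 fold change, as had 5681 of all 10777 genes. Flt4, the receptor of lymphatic vessels, had 3.69, 5.58 and 7.99 CPM in CR and 5.38, 7.21 and 9.57 CPM in PR, a log2 fold change of -0.35 (standard error 0.106). Eng, a coreceptor for TGF-beta that macrophages also carry, was the higher gene at 0.18. Of 8 tested mesothelial and mesothelioma genes 3 were lower and 0 higher at that level, with 5 negative and 3 positive log2 fold changes and a median of -0.05. Krt8, a keratin of simple epithelium, had 3.20, 9.35 and 13.7 CPM in CR and 5.79, 15.1 and 28.6 CPM in PR. Msln had 288, 349 and 416 CPM in CR and 298, 420 and 585 CPM in PR. Cdh2, N-cadherin, had -0.13. No CR tumor reached the PR median for Krt8 or Msln.

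**Figure D4:**
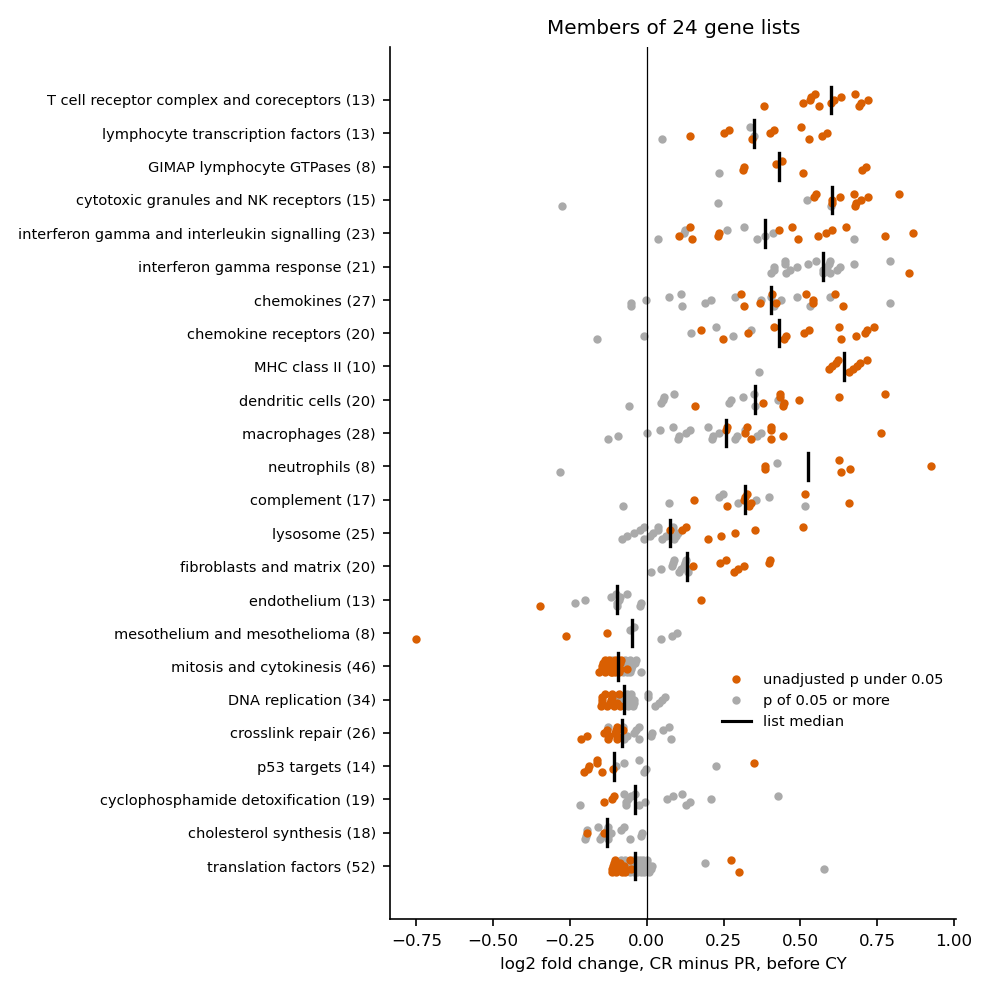
Log2 fold changes of CR against PR before CY for the tested members of 24 of the 49 gene lists, chosen with the values known, with the number of members in brackets. Orange points have an unadjusted p under 0.05, grey points do not, and the black bar is the list median. The immune lists drawn lie between 0.26 and 0.64, matrix at 0.13, and the lists of division and DNA repair just under 0.

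Division genes were lower in CR by a small amount in nearly every case. All 46 tested genes of mitosis and cytokinesis had a negative log2 fold change, between -0.15 and -0.02, with a median of -0.09 (-0.01 over all genes). Of these, 26 reached an unadjusted p under 0.05, and at the FDR 9 were called by DESeq2 and 14 by limma-voom. Kif4, a kinesin of chromosome structure, had 91.0, 103 and 112 CPM in CR and 101, 111 and 122 CPM in PR. Kif11, the motor that separates spindle poles, had -0.12 (standard error 0.033), and Anln, the cleavage furrow protein anillin, -0.15 (standard error 0.040). Of 34 DNA replication genes 28 were lower, 14 at that level, with a median of -0.07 (DESeq2 called 6, limma-voom 8). Dut, which removes dUTP, had -0.15, Cdc45, part of the replicative helicase, -0.13, and Mcm6, a subunit of the same helicase, -0.11.

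Promoters of mitotic genes often carry the cell cycle homology region (CHR), here searched as TTTGAA on both strands. RefSeq windows of 300 bases (GRCm38.p6) were found for 40 of the 46 mitosis genes, 42 windows in all. Of these 30 (71.4%) held the motif, against 17.9% of all 32851 RefSeq windows, which include those of genes not tested here. The inverted CCAAT box, searched as ATTGG on both strands, was in 27 (64.3%) against 37.4%. A match is a run of letters and not a known site. The list was made by gene function, so these shares do not bear on CR against PR. The same letters, not marked there, also stand in the downstream Hdac9 window and not in the upstream window. Arhgap11a and Cep55 are shown because they were among the 15 lower genes, and Kif4 as the next mitosis gene by p, with the CHR letters of either strand in capitals. Their windows are chr2:113848612-113848911 (minus strand), chr19:38054734-38055033 (plus strand) and chrX:100625815-100626114 (plus strand).
Arhgap11a: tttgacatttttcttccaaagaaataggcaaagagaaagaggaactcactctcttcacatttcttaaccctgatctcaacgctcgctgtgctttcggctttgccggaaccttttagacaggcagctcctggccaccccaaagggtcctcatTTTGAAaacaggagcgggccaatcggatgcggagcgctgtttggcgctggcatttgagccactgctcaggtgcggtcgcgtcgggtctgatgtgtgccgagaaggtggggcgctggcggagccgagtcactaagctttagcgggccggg
Cep55: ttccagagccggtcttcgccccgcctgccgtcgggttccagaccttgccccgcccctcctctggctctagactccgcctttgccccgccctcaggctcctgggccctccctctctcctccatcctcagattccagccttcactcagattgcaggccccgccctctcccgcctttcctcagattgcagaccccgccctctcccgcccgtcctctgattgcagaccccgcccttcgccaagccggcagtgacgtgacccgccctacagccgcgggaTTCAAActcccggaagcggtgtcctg
Kif4: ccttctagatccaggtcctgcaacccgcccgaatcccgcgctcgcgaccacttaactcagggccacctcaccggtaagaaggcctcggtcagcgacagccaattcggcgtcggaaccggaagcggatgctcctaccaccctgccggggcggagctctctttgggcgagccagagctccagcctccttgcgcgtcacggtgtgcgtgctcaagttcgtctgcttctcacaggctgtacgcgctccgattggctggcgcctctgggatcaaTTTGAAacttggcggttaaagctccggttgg

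DNA damage genes had small negative differences. Of 26 crosslink repair genes 21 had a negative log2 fold change, 12 at an unadjusted p under 0.05, with a median of -0.08. At the FDR DESeq2 called 2 of them lower and limma-voom 1, against 2.17% and 4.4% of all genes. The limma-voom count was not above that share. Ercc4, the nuclease that cuts beside a crosslink, had 23.04, 24.9 and 27.6 CPM in CR and 24.7, 27.1 and 31.7 CPM in PR. Fancd2, the central protein of the Fanconi pathway, had -0.19 (standard error 0.062). Palb2, which brings BRCA2 to breaks, had -0.13. Of 14 p53 target genes 12 were negative, 7 of them at an unadjusted p under 0.05, with a median of -0.11 (DESeq2 called 4 lower, limma-voom 6). Cdkn1a, the cell cycle inhibitor p21, had 100, 112 and 123 CPM in CR and 101, 132 and 145 CPM in PR. Ccng1 had -0.16 and Eda2r -0.21. Fas, a death receptor that lymphocytes also carry, was the exception at an unadjusted p under 0.05, with 0.35, and was singled out after its value was seen.

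Detoxification genes showed little. Of 19 genes of CY detoxification 3 were lower at an unadjusted p under 0.05 and 0 higher, with a median of -0.04. They were Gclm, a subunit of the enzyme that limits glutathione synthesis, with -0.11, Gss, glutathione synthetase, with -0.14, and the export pump Abcc1 with -0.11. Of 11 retinoid metabolism genes 2 were higher, Aldh1a2 (0.39) and Dhrs3 (0.28), and 1 was lower, Adh7 (-0.14). All 18 cholesterol synthesis genes were lower, with a median of -0.13, but only 2 of them, Nsdhl (-0.19) among them, had an unadjusted p under 0.05.

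Many protein synthesis genes had negative differences of a few percent. Of 52 translation factors 45 had a negative log2 fold change, 15 at an unadjusted p under 0.05, with a median of -0.04 (DESeq2 called 6 lower, limma-voom 11). At that level 2 were higher, Eif5a2 with 0.30 and Eif4e3 with 0.27, the latter named after its value was seen. DESeq2 called 1 factor higher and limma-voom 2. Eif4b, a helper of ribosome scanning, had 805, 837 and 907 CPM in CR and 825, 893 and 994 CPM in PR. Of 20 hnRNP genes, which bind nascent RNA, 19 were lower and 7 at that level. Of 75 mitochondrial ribosome genes 62 were lower and 7 at that level, a share near the background. Mrpl50 had -0.13 (standard error 0.034).

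Leukocyte genes moved with most of these lists. All 23 genes common to leukocytes were higher in CR, 20 at an unadjusted p under 0.05. Their summed level was 3062 to 4627 CPM in CR and 2709 to 4121 CPM in PR. With the leukocyte score in the model, the unadjusted p was under 0.05 for 275 higher and 300 lower genes, and edgeR called 0 genes. DESeq2 and limma-voom were not run with this score. The score is itself higher in CR, in 11 of 13 tumors above 0 against 3 of 13 PR tumors, so it is not independent of response. In this model the median log2 fold change went from 0.60 to 0.07 for the T cell receptor complex and from 0.43 to 0.10 for chemokine receptors. For the interferon gamma response it went from 0.57 to -0.19, with all 21 genes lower in CR. However, 0 of these 21 had an unadjusted p under 0.05. The type I interferon response went from 0.15 to -0.18, with 25 of 26 genes lower, 1 of them at an unadjusted p under 0.05. Monocytes went from 0.33 to -0.06. Mitosis went from -0.09 to -0.03, with 34 of 46 genes lower. Crosslink repair went from -0.08 to -0.02, and endothelium from -0.10 to 0.00. The matrix list went from 0.13 to 0.12, with all 20 log2 fold changes positive. The genes at an unadjusted p under 0.05 went from 8 to 2 for matrix, from 26 to 3 lower for mitosis, from 12 to 1 lower for crosslink repair and from 14 to 0 for chemokine receptors. Detoxification went from -0.04 to -0.03, again with 3 genes lower at an unadjusted p under 0.05.

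**Figure D5:**
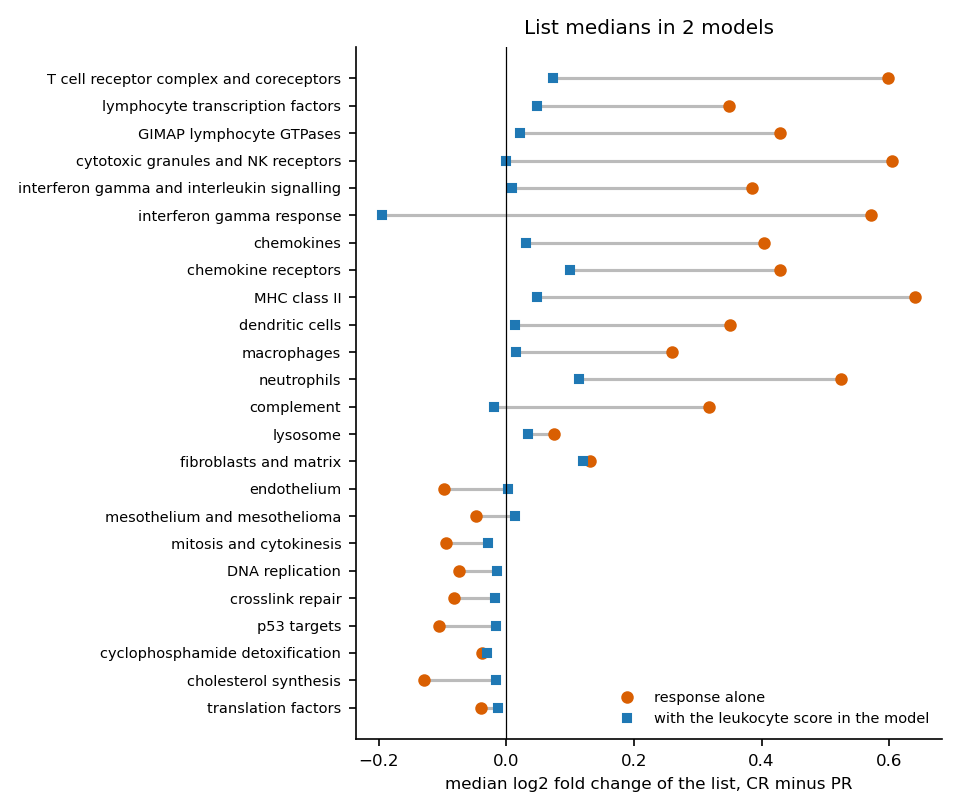
Median log2 fold change of the same 24 of 49 gene lists, CR against PR before CY, with response alone in the model (orange circles) and with the leukocyte score added (blue squares). With the score the immune lists drawn lie between -0.02 and 0.11, apart from the interferon gamma response at -0.19, and fibroblasts and matrix lie at 0.12.

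Skin and muscle moved with response less evenly. Of 9 tested keratinocyte genes 8 were higher in CR and 0 had an unadjusted p under 0.05, with a summed level of 61.7 to 876 CPM in CR and 68.3 to 593 CPM in PR. Of 16 skeletal muscle genes 15 were higher, 6 at that level, with 322 to 1628 CPM in CR and 240 to 1054 CPM in PR. With skin and muscle scores in the model Hdac9 remained called (log2 fold change -0.28, adjusted p = 0.0247). In that model 371 higher and 419 lower genes had an unadjusted p under 0.05. The median of the T cell receptor complex was then 0.38 and that of matrix 0.08.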

How the data were processed

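The authors extracted RNA from frozen tumors, sequenced it on an Illumina platform and deposited raw counts per gene symbol. The submitters' notes on processing name kallisto, a pseudoaligner, and the build GRCm38.p6. The kallisto version and how transcripts were summed to genes are not given in the sources used here. The labels and the study's methods give different read lengths. The table held 46012 entries, and the last, which was incomplete, was left out. It also held 13 names that a spreadsheet had turned into dates. These were tested but are left unnamed.

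In R 4.3.3, counts of the 26 tumors were normalized with TMM (factors 0.982 to 1.017) and filtered with filterByExpr. The test was edgeR 4.0.16 (glmQLFTest after glmQLFit with legacy settings) at an FDR under 0.1. The 46 tumors in 6 groups were fitted together for the later days. Scores use log2 CPM with a prior count of 2. All 325 pairs of the 26 libraries differed by more than sampling noise (lowest chi-square per degree of freedom 3.76). Replicates were separate mice.

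Named genes are the leading 15 by p on either side, without predicted names (1 was skipped, on the higher side), up to 4 members of each list discussed by p, and Cd4, Cd8a, Foxp3 and Ifng. Some of the genes this rule picks are not reported here. The members, lists and tests were chosen with earlier results of these data known. The translation factor list was corrected after its values were seen, since its name pattern had caught kinases and binding proteins. Alternatives were DESeq2 1.42.0, limma 3.58.1 (voom with quality weights), other normalization, filters and thresholds, covariates for skin and muscle, for leukocytes and for the title number, and each tumor left out in turn. The fits within each set of titles were added after seeing the data. The test was checked on simulated counts.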

Additional observations from a re-analysis of the deposited data

Results flagged for a closer look

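In the CR tumors at day 3, the highest Hdac9 value (28.4 CPM, tumor CT3_8) stood far from the other 4 tumors of its group, which lay close together. The gap to its neighbor was 0.839 of the group's whole range. The rule used would flag about 1 in 20 groups of this size by chance alone, if values were normally distributed. This is the rate of the rule and not of a gap this wide. In all, 4 groups of 5 tumors were looked at.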

How the results depend on the processing

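The count of calls depended on the tool and on some of the single tumors. The main test called 0 genes higher and 1 lower in CR. DESeq2 called 231 and 206, and limma-voom with quality weights 714 and 474. With all 46 tumors in 1 model the calls were 6 higher (Cd5, Col20a1, Cyp4f18, Il17ra, Il27ra and Ntf5) and 2 lower (Hdac9 and Kcnab1), where Ntf5 and Kcnab1 are named after their values were seen. With the title number as a covariate they were 62 and 88, and with the leukocyte score 0 and 0. Leaving out each tumor in turn gave from 0 to 551 higher and from 1 to 323 lower calls, with a median of 0 and 1. The cause of these differences was not tested. The revised quasi-likelihood method, DESeq2's size factors, no filter, at least 1 CPM in 13 tumors, an FDR under 0.05, and skin and muscle scores as covariates each gave 0 and 1. With the filter at 1 CPM, 2 of the 30 genes with the smallest p were not tested. Of 126 genes followed, 7 changed sign, all with the leukocyte score in the model: Cd8a (-0.089), Ifng (-0.26), Gbp8 (-0.13), Irf1 (-0.088), C3ar1 (-0.012), Eif2s3y (-0.0070) and Kdm5d (-0.042). Hdac9 at day 3 turned to 0.025 and 0.0079 in fits of that day's tumors without the PR tumors CT3_6 and CT3_7. No paired analysis was possible because every tumor before CY came from a different mouse and no label pairs a CR with a PR tumor. Depth limits the genes at few counts, such as Blk and Ifng.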
